A study of Mus musculus with 6 samples.

Results

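The cytosolic ribosomal protein genes were taken as every row of the count table whose GENCODE M21 symbol is protein-coding and reads Rpl or Rps followed by a number, with the endings a, l, x, a digit or a combination of these allowed. The rule left out mitochondrial ribosomal proteins and all pseudogenes. It found 80 genes among 54838 rows, 49 of the large subunit (Rpl) and 31 of the small subunit (Rps). It does not reach Rplp0, Rplp1, Rplp2, Rpsa and Fau, which also encode parts of the cytosolic ribosome. Of the 80 members, 79 had enough counts to be tested, and Rpl10l, a testis gene in mouse, had 0 counts in all 6 libraries.

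The cells were mouse B cells in culture. Naive B cells were sorted from the spleens of 10 male mice aged 3 months, which had been immunised with sheep red blood cells (SRBC) 9 days before, over 2 independent experiments, and the sorted cells were pooled. All cultures received mIL4 at 80 ng/ml and anti-CD40 at 5 μg/ml, a pair of signals that stands in for T cell help, for 5 days in embryonic stem cell medium. The Cpd10 group (3 libraries, A to C) was given 1 μM Cpd10, described in the labels as a Foxo1 inhibitor, for 48 h from day 3; the DMSO group (3 libraries, A to C) was given the solvent over the same time. The libraries were made from poly A RNA with a directional kit.

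The cytosolic ribosome is built from a small subunit, which reads the mRNA, and a large subunit, which forms the peptide bond. Ribosomal protein mRNAs begin with a stretch of C and T bases, the 5′ terminal oligopyrimidine (TOP) tract, and their translation is switched on together by the growth kinase mTORC1. B cells enlarge and make ribosomes when CD40 and the interleukin 4 receptor are engaged. Almost every ribosomal protein comes from 1 active gene, but the mouse genome also carries many intronless processed copies of these genes, and reads from a gene and a near-identical copy are hard to separate.

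Total counts ran from 38110927 to 44859930 in Cpd10 libraries and from 36873204 to 42798114 in DMSO libraries, so the spread between libraries, and not counting error, limits the precision for most members. The libraries fell into 2 sets of 3 that cross the groups. Set 2 holds Cpd10 B, Cpd10 C and DMSO B, and set 1 holds Cpd10 A, DMSO A and DMSO C. The division was chosen on genes outside the members: 9 such genes had 3 counts or fewer in every library of one set and 50 or more in every library of the other, against 1 gene for the next best division. The labels name no such set, and what it stands for was not tested. Summed over the marker lists, B cell genes reached 18128 to 22694 CPM (counts scaled to normalised library size) in Cpd10 libraries and 18372 to 32074 CPM in DMSO libraries. T cell genes summed to 175 to 274 CPM in Cpd10 libraries and 226 to 438 CPM in DMSO libraries, nearly all of it Thy1, and 5 of these 8 genes had too few counts to be tested. Thy1 and Cd2 were lower in Cpd10 in the edgeR fit with the library set as a term (adjusted p = 0.0167 and 0.00216) and did not pass with group alone. Myeloid genes summed to 56.9 to 63.4 CPM in Cpd10 libraries and 29.2 to 43.7 CPM in DMSO libraries. Cd68 and Adgre1 made up nearly all of it, and only 3 of these 8 genes had enough counts to be tested. Among them Cd68 was higher in Cpd10 (log2 fold change 1.46, adjusted p = 0.0168 by edgeR with group alone). Adgre1 went the other way in the edgeR fit with the set term (log2 fold change -0.80, adjusted p = 0.0252) and did not pass with group alone. Means in Cpd10 and DMSO cells were 48.6 and 17.7 CPM for Cd68, and 11.96 and 18.5 CPM for Adgre1. Fibroblast and endothelial genes summed to 4.93 to 6.14 CPM in Cpd10 libraries and 11.3 to 20.5 CPM in DMSO libraries. Nearly all of it was Pecam1, at 4.10 to 5.83 CPM and 10.2 to 19.5 CPM, and only 2 of these 7 genes had enough counts to be tested. Erythroid genes summed to 2.29 to 3.25 CPM in Cpd10 libraries and 0 to 0.551 CPM in DMSO libraries, and NK cell genes to 2.08 to 10.2 CPM in Cpd10 libraries and 3.69 to 13.3 CPM in DMSO libraries. Only 1 of the 6 erythroid genes and 2 of the 6 NK cell genes had enough counts to be tested. Whether these sums come from other cells or from the B cells themselves was not tested, nor was their part in the members' values. Counts in immunoglobulin genes took 2.57 to 4.23% of Cpd10 libraries and 2.74 to 6.80% of DMSO libraries.

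The members together took 6.18%, 10.9% and 9.79% of all counts in Cpd10 A, B and C, and 6.48%, 10.5% and 6.03% in DMSO A, B and C. The groups overlap over most of their range, and within each group the libraries of set 2 lie well above those of set 1. The share averaged 8.97 ± 2.48% in Cpd10 cells and 7.66 ± 2.45% in DMSO cells (SD, n = 3 each), a difference of 1.30 percentage points that is smaller than the SD of either group. Within set 1 the single Cpd10 library differed from the mean of its 2 DMSO libraries by -0.0737 percentage points. Within set 2 the mean of the 2 Cpd10 libraries differed from the single DMSO library by -0.121 points. Leaving out 1 library moved the difference between 0.321 points (without Cpd10 B) and 2.71 points (without DMSO B). These are RNA shares of bulk cultures, in which fewer cells of a type and less RNA per cell cannot be told apart.

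**Figure D1:**
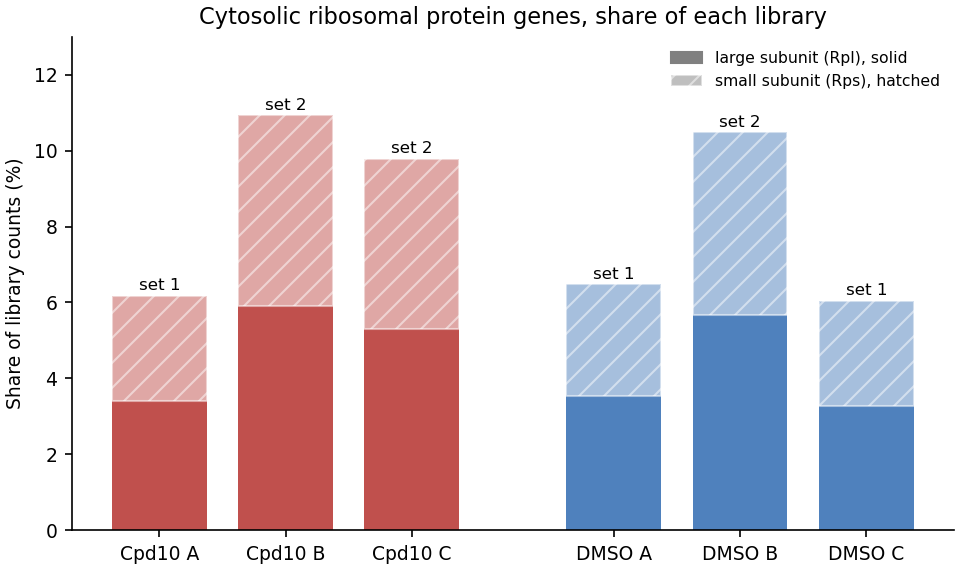
Share of each library's counts (percent, vertical axis) in members of the large subunit (solid) and the small subunit (hatched), with Cpd10 libraries in red on the left and DMSO libraries in blue on the right. The 3 bars of set 2 stand at 9.79 to 10.9%, and the 3 bars of set 1 at 6.03 to 6.48%.

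The balance between the subunits was steadier than their sum. Small subunit genes supplied 45.1%, 45.9% and 45.8% of member counts in Cpd10 A, B and C, and 45.6%, 45.8% and 45.7% in DMSO A, B and C. The means were 45.6 ± 0.431% in Cpd10 cells and 45.7 ± 0.121% in DMSO cells (SD, n = 3 each), so any difference was smaller than the spread between replicates. Counted per kilobase of exon, the small subunit share was 47.0 ± 0.115% in Cpd10 cells and 47.1 ± 0.326% in DMSO cells.

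Levels of the members are given as mean CPM per kilobase of annotated exons over the 6 libraries, and 71 of the 80 lay between 114 and 2179.6 CPM per kb. Rps15, a protein of the small subunit head, was highest at 2179.6 CPM per kb. Rpl4 followed at 1858, Rps4x at 1599, Rpl36 at 1459, Rps3a1 at 1451 and Rpl8 at 1378 CPM per kb, with ranges over the libraries that overlap. Compared within each library, Rps15 stood above Rpl4 and Rpl4 above Rps4x in 6 of 6 libraries, and Rps4x above Rpl36 in 5 of 6, whereas Rpl36 and Rps3a1, and Rps3a1 and Rpl8, each changed places in 3 of 6. In CPM without the length correction, 71 members averaged at least 100 CPM and 5 tested members were under 10 CPM. The lowest tested members were Rpl39l at 0.571, Rpl3l at 0.922, Rps10 at 2.06, Rpl36al at 3.97, Rpl24 at 5.89 and Rpl13a at 35.8 CPM per kb. Rpl39l, Rpl3l and Rpl36al are tissue-restricted or minor paralogues, but Rps10, Rpl24 and Rpl13a encode core ribosomal proteins.

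**Figure D2:**
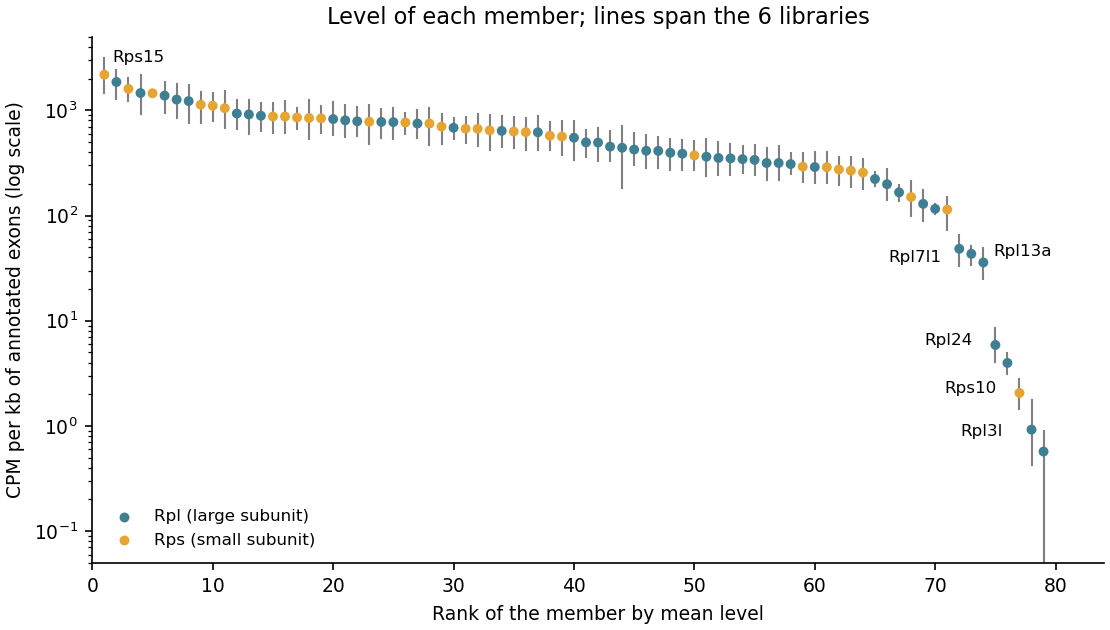
Mean level of each member (CPM per kb of annotated exons, log scale, vertical axis) ordered by rank, with grey lines from the lowest to the highest of the 6 libraries. The 71 highest members lie between 114 and 2179.6 CPM per kb, and Rpl24, Rps10 and 3 paralogues lie below 10 CPM per kb; Rpl10l, at 0, is not drawn, and the line of Rpl39l ends at the axis because Cpd10 C had 0 counts.

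For Rpl24 and Rps10, annotated pseudogene copies with at least 95% identity took much of the count. Copies held 40.7%, 41.7% and 43.1% of the summed Rpl24 counts (gene plus copies) in Cpd10 A, B and C, and 39.5%, 48.1% and 40.3% in DMSO A, B and C. Copies of Rps10 held 43.8 to 61.4% of the summed count in Cpd10 libraries and 40.7 to 52.9% in DMSO libraries. For Rpl13a the copies held less, 13.9 to 17.6% in Cpd10 libraries and 13.9 to 20.2% in DMSO libraries. Even with its copies added, Rpl24 reached only 7.95 to 15.03 CPM in Cpd10 libraries and 6.96 to 14.2 CPM in DMSO libraries. The sources used here do not give how reads with several matches were counted, and whether the low values of Rpl24, Rps10 and Rpl13a are levels of RNA or of counted reads was not tested.

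The comparison of Cpd10 with DMSO asked whether the compound changed ribosomal protein mRNA. With edgeR's quasi-likelihood test, group as the only term and Benjamini-Hochberg adjustment over 15136 genes, no member was called higher in Cpd10, beside 0.317% of all tested genes, and none was called lower, beside 0.0529%. At an unadjusted p under 0.05 the test held 2 of 79 members (2.53%, against 8.39% of all genes). DESeq2 called 1 member higher (1.41% of all genes) and none lower (1.11%), and limma-voom called none higher (0.291%) and none lower (0.0396%). At an unadjusted p under 0.05, DESeq2 held 2 members (against 9.43% of all genes) and limma-voom 1 member (against 8.52%). The log2 fold change was nonetheless above 0 for 74 of 79 members (93.7%, against 49.8% of all genes), with a median of 0.26 beside -0.0012 over all tested genes. That median was 0.26 for Rpl and 0.26 for Rps members. The median standard error (SE) of a member was 0.32, larger than the median fold change itself. Leaving out 1 library moved the median of the members between 0.065 (without Cpd10 B) and 0.59 (without DMSO B).

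The direction shared by the members followed the library sets. With the set as a second term in the edgeR fit, 34 of 79 members (43.0%, against 48.0% of all genes) had a log2 fold change above 0, and the median was -0.0082. The median SE fell to 0.086. The median difference, Cpd10 minus DMSO, was -0.0056 within set 1 and -0.018 within set 2 on the log2 CPM scale. In that fit 66 of the 71 members at 100 CPM or more had a log2 fold change smaller than 0.1 in size. Over all genes at 10 CPM or more the median log2 fold change was 0.0053 and the median SE 0.10. The share of those genes under 0.1 was not taken, so the count is not read as particular to the members. One member was called higher (2.32% of all genes) and none lower (1.64%), with 1 member against 16.0% of all genes at an unadjusted p under 0.05. Since the set was picked from the same counts, p-values of this fit are exploratory.

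**Figure D3:**
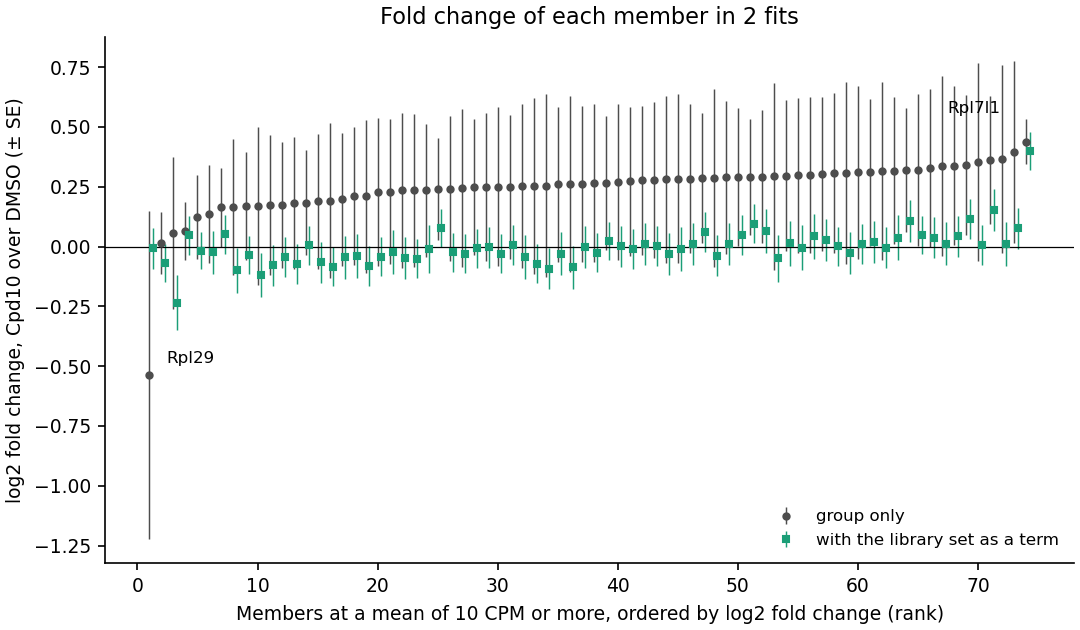
Log2 fold change of Cpd10 over DMSO (vertical axis, bars ± SE) for members at a mean of 10 CPM or more, ordered by the value with group as the only term (dark circles) and shown again with the library set as a second term (green squares). The dark circles lie mostly near their median of 0.26 with wide bars, and the green squares scatter about 0 with narrow bars. The green squares farthest from 0 are Rpl7l1 at 0.40 and, on the lower side, Rps27l at -0.23.

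Across the sets themselves, 72 of 79 members (91.1%) were higher in every set 2 library than in every set 1 library, beside 18.8% of all tested genes. The median log2 difference, set 2 minus set 1, from the fit with both terms was 0.82, beside 0.0024 over all tested genes, and 69 members (87.3%, against 18.1% of all genes) exceeded 0.5. The median was 0.82 for Rpl and 0.85 for Rps members. Because sets differ in many genes and the division comes from these data, these values are a description with no test. The spread of the members between replicates shows the same split. Their median SD between replicates of a group was 0.49 in log2 CPM, beside 0.17 for all genes at 10 CPM or more. Between libraries of the same group and the same set it was 0.11, beside 0.10 for those genes.

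**Figure D4:**
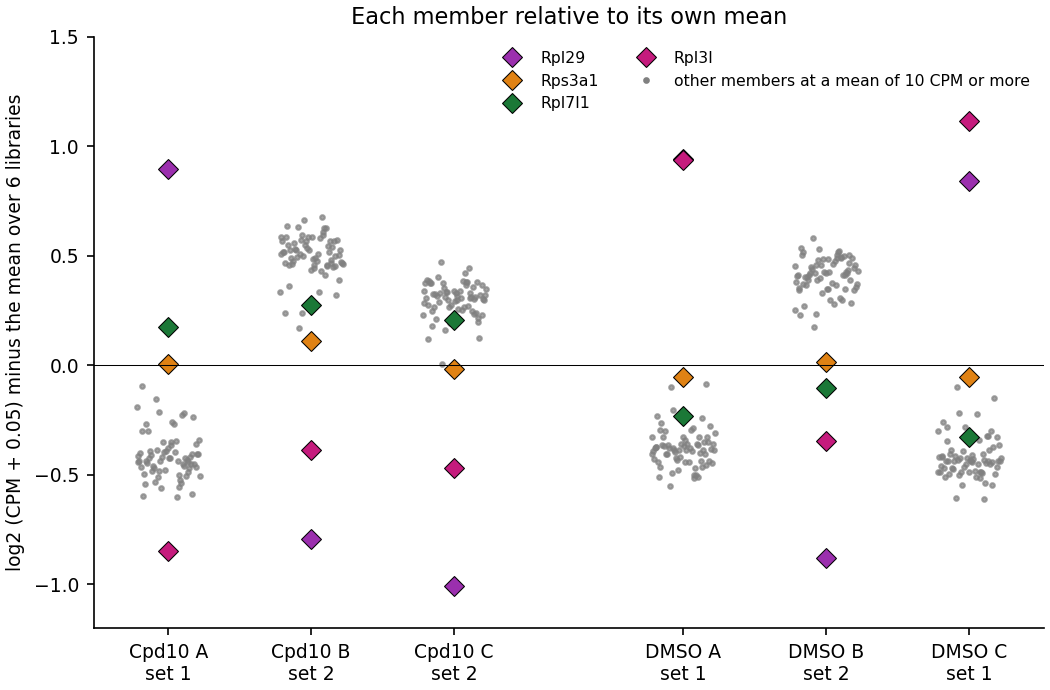
Log2 (CPM + 0.05) of each member minus its own mean over the 6 libraries (vertical axis), Cpd10 libraries on the left and DMSO libraries on the right; grey points are members at a mean of 10 CPM or more and diamonds mark 4 named members. The grey points lie above 0 in Cpd10 B, Cpd10 C and DMSO B and below 0 in the other libraries, while Rpl29 lies on the opposite side.

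Among small subunit genes, Rps6, whose protein is phosphorylated by S6 kinase downstream of mTORC1, had 719.8, 1372 and 1174 CPM in Cpd10 A, B and C, and 698, 1306 and 703 CPM in DMSO A, B and C. DMSO B lay between Cpd10 C and Cpd10 B, and the 3 set 1 libraries lay together near the bottom. Its log2 fold change was 0.27 (SE 0.33, adjusted p = 0.899 by edgeR), and 0.0011 once the set was a term. Rps19, the gene most often mutated in human Diamond-Blackfan anaemia, had 836, 1579 and 1423 CPM in Cpd10 libraries and 895, 1614 and 851 CPM in DMSO libraries. Here the highest library was DMSO B, and the fold change of 0.19 (SE 0.32) was within the error. Rps14, lost in human 5q- syndrome, had one of the widest gaps between sets, 1283, 3019 and 2530.4 CPM in Cpd10 libraries against 1321.5, 2652 and 1321 CPM in DMSO libraries. Rps25, which viral internal ribosome entry sites depend on, kept one of the steadiest shares of all member counts. Its CPM values were 555, 1050.1 and 928 in Cpd10 libraries and 576, 1011 and 576 in DMSO libraries.

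Among large subunit genes, Rpl5 and Rpl11 carry 5S rRNA into the ribosome and bind the p53 regulator Mdm2 when assembly fails. Rpl5 had 1079.6, 2029 and 1821 CPM in Cpd10 libraries and 1065, 2029 and 1069.8 CPM in DMSO libraries, so that Cpd10 B and DMSO B were level. Rpl11 had 806, 1642 and 1330.1 CPM in Cpd10 libraries and 833, 1424 and 819 CPM in DMSO libraries. Log2 fold changes were 0.24 (SE 0.33) for Rpl5 and 0.30 (SE 0.32) for Rpl11, both within their error. Rpl10a had 718, 1361 and 1209 CPM in Cpd10 libraries against 721, 1310.3 and 683 CPM in DMSO libraries. Rpl38, needed for translation of Hox mRNAs in mouse embryos, had 229, 478 and 385 CPM in Cpd10 libraries against 238, 445 and 233 CPM in DMSO libraries. Rpl3, which reaches the peptidyl transferase centre, had the highest set difference of all tested members, with 1117, 2507 and 2239.9 CPM in Cpd10 libraries against 1105, 2420.2 and 1063 CPM in DMSO libraries. For Rpl3 the set difference was 1.12 on the log2 scale, and the fold change with the set term was 0.0078.

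The member with the smallest p was Rpl7l1, a paralogue of Rpl7 whose yeast relative Rlp7 is an assembly factor of the large subunit. Its counts were 7655, 7120 and 6478 in Cpd10 A, B and C, and 5684, 5045 and 4891 in DMSO A, B and C. Every Cpd10 library lay above every DMSO library on the CPM scale, at 169, 181 and 172 CPM against 127, 139 and 119 CPM, and Rpl7l1 was the 1 member of 79 (1.27%, against 7.31% of all genes) with that order. Means were 174 ± 6.09 CPM in Cpd10 cells and 128 ± 9.98 CPM in DMSO cells (SD, n = 3 each). The log2 fold change was 0.44 (SE 0.094), which did not pass edgeR's test with group alone (unadjusted p = 0.00186, adjusted p = 0.146). Rpl7l1 was higher in Cpd10 cells by DESeq2 (adjusted p = 0.00701) and by edgeR with the set term (log2 fold change 0.40, SE 0.080, adjusted p = 0.0134). The difference was 0.45 within set 1 and 0.35 within set 2, and leaving out 1 library kept the fold change between 0.39 and 0.50. Rpl7l1 also differed little between the sets, by 0.12.

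The member at the other end was Rpl3l, the form of Rpl3 found in heart and skeletal muscle, with 32, 39 and 35 counts in Cpd10 libraries and 114, 37 and 119 counts in DMSO libraries. DMSO B, the DMSO library of set 2, was level with the Cpd10 libraries. On the CPM scale Rpl3l was the 1 member (1.27%, against 7.32% of all genes) with every Cpd10 library below every DMSO library, at 0.705, 0.989 and 0.931 CPM against 2.55, 1.02 and 2.90 CPM. The log2 fold change of -1.30 (SE 0.48) did not pass (adjusted p = 0.510 by edgeR), and the difference was -1.88 within set 1 but -0.081 within set 2.

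Genes with an active second copy let the share of the minor form be followed. Rpl22l1 made 15.7%, 14.05% and 13.9% of its summed counts with Rpl22 in Cpd10 A, B and C, and 14.6%, 14.05% and 13.8% in DMSO A, B and C, so the pair kept its ratio across both sets. Rps27l, a p53 target, made 8.56%, 9.57% and 9.31% of its sum with Rps27 in Cpd10 libraries and 11.6%, 9.72% and 8.72% in DMSO libraries, with DMSO A highest. The sums use counts, so they also reflect the lengths of the genes. Rpl7l1 made 9.68%, 6.16% and 6.54% of its sum with Rpl7 in Cpd10 A, B and C, and 7.66%, 4.90% and 7.46% in DMSO A, B and C. Within each set its share was higher in every Cpd10 library than in every DMSO library, while the groups as a whole overlap. Rpl36al made 1.01 ± 0.515% of its sum with Rpl36a in Cpd10 cells and 1.42 ± 0.351% in DMSO cells (SD, n = 3 each). Rpl39l, known from testis, had 34, 8 and 0 counts in Cpd10 libraries and 32, 18 and 28 in DMSO libraries, and its log2 fold change of -0.97 had an SE of 1.10. A count of 0 there allows up to 3 counts.

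Of the 7 members outside the pattern of the sets, Rpl29 and Rps3a1 were abundant, and their near-identical copies had many more counts in set 2. Rpl29, a large subunit protein also known to bind heparin, had 34933, 9415 and 7730 counts in Cpd10 A, B and C, and 35529, 8173 and 30493 in DMSO A, B and C. It was lower in every set 2 library than in every set 1 library, with a log2 set difference of -1.78; Rpl39l was the other of 2 members (2.53%, against 17.1% of all genes) with that order. Gm8210, an intronless processed pseudogene of Rpl29 at chr1:43189156-43189638, plus strand, had 0, 3771 and 3391 counts in Cpd10 libraries and 8, 3767 and 8 counts in DMSO libraries. Its 483 coding-derived bases differ from Rpl29 by 3 substitutions, C72A, C300T and T423C, with the base of Rpl29 first and positions counted from 1 at the first coding base. The stretch from coding base 42 to 101 is printed to show how little separates gene and copy, with the differing base in capitals. Rpl29 itself lies at chr9:106429454-106431568 on the plus strand (GRCm38).

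Rpl29: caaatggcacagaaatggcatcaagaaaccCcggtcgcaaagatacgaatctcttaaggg
Gm8210: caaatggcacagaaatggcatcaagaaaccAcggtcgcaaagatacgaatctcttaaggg

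All 28 copies of Rpl29 held 0.357%, 31.6% and 34.4% of the summed count in Cpd10 A, B and C, and 0.339%, 34.8% and 0.386% in DMSO A, B and C. Adding them did not close the gap, since gene plus copies came to 772, 349 and 313 CPM in Cpd10 libraries against 798, 345 and 744 CPM in DMSO libraries. Rps3a1, a small subunit protein at the mRNA exit side, had 64470, 60316 and 52562 counts in Cpd10 libraries and 60892, 51947 and 56053 in DMSO libraries, and differed between the sets by only 0.056. Its copy Rps3a3, at chr13:108670603-108671397 on the plus strand, had 72, 15120 and 12088 counts in Cpd10 libraries and 78, 12668 and 78 counts in DMSO libraries. Rps3a3 differs from Rps3a1, which lies at chr3:86137940-86142702 on the minus strand, by 9 substitutions over 795 bases. The stretch from coding base 208 to 267 holds 2 of them, T216C and T260C, in capitals.

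Rps3a1: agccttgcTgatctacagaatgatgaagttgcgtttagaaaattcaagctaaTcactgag
Rps3a3: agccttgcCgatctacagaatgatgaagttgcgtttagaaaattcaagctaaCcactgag

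With its 6 copies added, Rps3a1 reached 1431, 1992 and 1797 CPM in Cpd10 libraries against 1372, 1853 and 1373 CPM in DMSO libraries, and the set 2 libraries then stood above set 1 as for most members. Copies of Rpl15 held 5.52%, 17.9% and 18.5% of its summed count in Cpd10 libraries and 5.63%, 18.1% and 6.13% in DMSO libraries. Rpl34 and Rps7, with copies at 0.823 to 4.63% and 0.941 to 4.09%, showed the same order. Copies of Rpl3, by contrast, held 10.3%, 5.58% and 6.20% in Cpd10 libraries and 11.1%, 6.28% and 11.7% in DMSO libraries, a lower share in set 2. Over all members the 563 copies took 0.0594%, 0.172% and 0.167% of counts in Cpd10 libraries and 0.0679%, 0.176% and 0.0630% in DMSO libraries. With copies included the member share was 6.24%, 11.1% and 9.95% in Cpd10 libraries and 6.54%, 10.7% and 6.10% in DMSO libraries. The reads counted on copies were thus few beside the gap between sets. Any reads left uncounted because they match several places are in neither sum, and their part was not tested. What lies behind the difference between the sets was not tested.

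**Figure D5:**
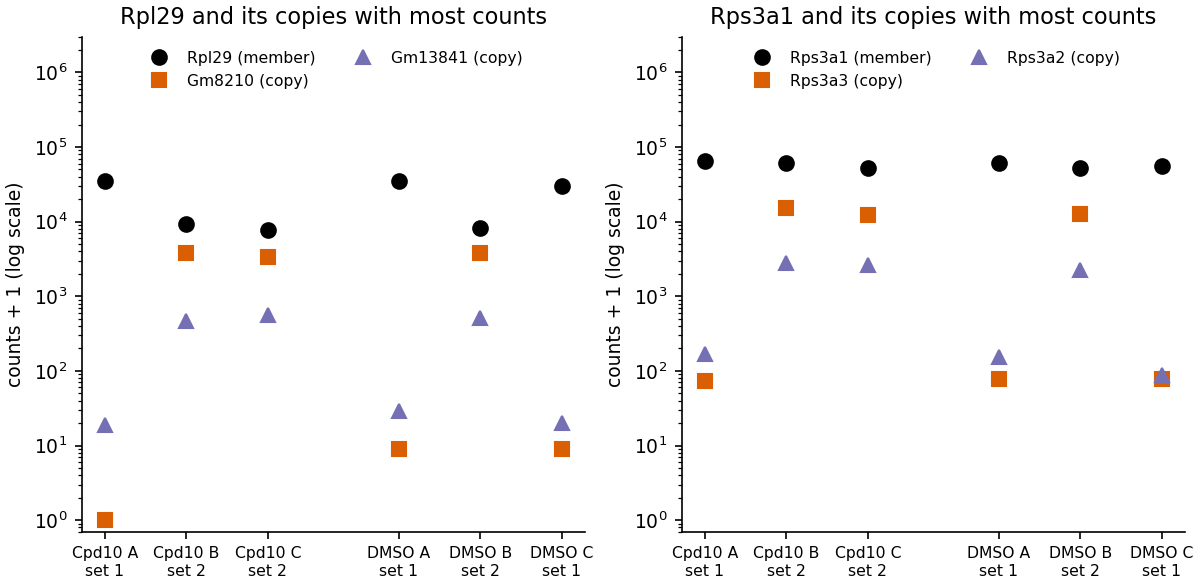
Deposited counts plus 1 (log scale, vertical axis) of Rpl29 (left panel) and Rps3a1 (right panel) as black circles, with the 2 copies of each that have most counts as squares and triangles, in Cpd10 libraries on the left of each panel and DMSO libraries on the right. Each copy is higher in Cpd10 B, Cpd10 C and DMSO B than in the other libraries, where Gm8210 has at most 8 counts.

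The members' promoters were searched for features the rule did not use. Among 27025 genes with a window of 250 bases before to 50 after an annotated start (RefSeq, GRCm38.p6), 61 of the 80 members were found. A pyrimidine run, a C followed by at least 6 bases that are each C or T and beginning at most 20 bases before or 15 after the start on the transcribed strand, stood in 34 of 61 members (55.7%, against 20.7% of all genes). CCGGAAG, the core bound by ETS factors such as GABPA, stood on either strand in 24 members (39.3%, against 9.93%), and AAGATGG, which YY1 binds, in 10 (16.4%, against 7.28%). GGGCGG, the GC box, stood in 37 (60.7%, against 38.2%), TATAAA in 6 (9.84%, against 15.7%) and CACGTG, the E-box of Myc and its relatives, in 6 (9.84%, against 8.09%). The motifs were searched separately and may overlap. Of the tested members, those with the pyrimidine run had a median set difference of 0.86 (n = 34) and those without it 0.79 (n = 26). Printed from 45 bases before to 15 after the start are 4 promoters of genes that followed the sets and, last, those of Rpl7l1 and Rpl36al, which did not. Capitals mark the pyrimidine run, and the last pair has none. The printed promoters are chosen examples and do not stand for the other members. Rps16 and Rps3 lack the run and followed the sets, with set differences of 1.03 and 0.93. Of other members whose sets overlapped or ran the other way, Rps10 and Rpl39l hold the run, and Rpl3l and Rps3a1 lack it. Rps10 overlapped at a low level, with a set difference of 0.56. With its 2 copies added, Rps10 was higher in every set 2 library, at 11.0 to 13.6 CPM against 5.96 to 8.15 CPM in set 1. Rps3a1 with its copies was likewise higher in set 2.

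Rps6: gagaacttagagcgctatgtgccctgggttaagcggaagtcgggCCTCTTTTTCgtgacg
Rpl38: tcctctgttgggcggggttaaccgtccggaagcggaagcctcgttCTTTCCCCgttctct
Rps27: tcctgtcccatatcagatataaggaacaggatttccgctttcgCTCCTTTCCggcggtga
Rpl15: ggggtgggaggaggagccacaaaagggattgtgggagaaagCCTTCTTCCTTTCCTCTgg
Rpl7l1: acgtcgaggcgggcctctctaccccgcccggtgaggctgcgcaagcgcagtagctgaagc
Rpl36al: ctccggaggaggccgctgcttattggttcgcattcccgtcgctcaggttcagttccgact

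These windows lie at chr4:86857353-86857412 on the minus strand (Rps6), chr11:114668535-114668594 on the plus strand (Rpl38), chr3:90213634-90213693 on the minus strand (Rps27), chr14:18270972-18271031 on the minus strand (Rpl15), chr17:46782642-46782701 on the minus strand (Rpl7l1) and chr12:69184053-69184112 on the minus strand (Rpl36al). A match says only that the letters are there.

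Other genes of the translation apparatus were read from the same edgeR fit. Of 7 further parts of the cytosolic ribosome, Rplp0, Rpsa and Rack1 among them, none passed the test and 6 were higher in every set 2 library, with a median set difference of 0.86. Rpsa had 2488, 4687 and 4220.4 CPM in Cpd10 libraries against 2418, 4619 and 2313 CPM in DMSO libraries. None of 18 other TOP mRNAs, mainly elongation and initiation factors, passed, with a median log2 fold change of 0.17 and a median set difference of 0.55; 17 of the 18 were higher in every set 2 library. None of 77 tested mitochondrial ribosomal protein genes passed, and 31 of them were higher in every set 2 library, with a median set difference of 0.18. None of 38 ribosome biogenesis genes passed either, with a median log2 fold change of -0.027 and 13 higher in every set 2 library. Over all tested genes, 18.8% were higher in every set 2 library. Calls took 0.317% of all tested genes (higher) and 0.0529% (lower), so the lack of calls in lists of these sizes says little about them.

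Next came factors and signals that act on these genes. None of 11 factors of ribosomal protein promoters passed, beside 0.317% (higher) and 0.0529% (lower) of all tested genes with group alone. Myc, which drives ribosomal protein transcription, had 157, 175 and 163 CPM in Cpd10 libraries against 372, 178 and 249.5 CPM in DMSO libraries, a log2 difference of -0.69 (adjusted p = 0.501 by edgeR). None of 17 genes of translation control passed with group alone. Eif2ak3, which encodes the PERK kinase, was higher in Cpd10 with the set term (log2 fold change 0.45, adjusted p = 0.0111), at 123, 105 and 114 CPM in Cpd10 libraries against 93.7, 74.8 and 99.2 CPM in DMSO libraries. Of 12 tested host genes of small nucleolar RNAs none passed with group alone. Snhg12 was lower in Cpd10 in the edgeR fit with the set term (log2 fold change -0.53, adjusted p = 0.0470). That fit called 2.32% of all tested genes higher and 1.64% lower, so 1 call in a list of this size says little about the list. Of the 4 genes of the p53 checkpoint that Rpl5 and Rpl11 feed, none passed and 3 were higher in every set 2 library (against 18.8% of all tested genes). The p53 target Cdkn1a had 56.2, 332 and 312 CPM in Cpd10 libraries against 159, 382 and 79.3 CPM in DMSO libraries.

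Gene length moved with the set difference outside the members. Coding genes with under 1000 exon bases that are no members had a median set difference of 0.26 (n = 249), and 34.1% of them were higher in every set 2 library, against a median of -0.012 and 17.8% for longer ones (n = 11850). Among the members the 11 short genes had a median of 0.82 and the 68 longer genes a median of 0.83. Small subunits of the respiratory chain, which are short as well, had a median of 0.31, and 27 of 39 were higher in every set 2 library. NK cell genes, by contrast, were lower in set 2, at 2.08 to 3.69 CPM in sum against 8.69 to 13.3 CPM in set 1. Only 2 of these 6 genes, Prf1 and Gzma, had enough counts to be tested. Both were lower in every set 2 library, an order held by 17.1% of all tested genes. The part of length, or of any other cells, in the result was not tested.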

How the data were processed

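The table deposited by the authors holds raw counts of reads for each gene and library, as whole numbers. STAR 2.7.10a, featureCounts 2.0.6, DESeq2 and the build GRCm38 (mm10) are named in the submitters' processing notes. The strand setting and the treatment of reads with several matches are not given in the sources used here. Of 54838 identifiers, 54809 were found in GENCODE M21 and 29 were not. Counts were tested with edgeR 4.0.16 in R 4.3.3 (TMM factors, filterByExpr, robust quasi-likelihood fit, group as the only term), and p-values were adjusted by the Benjamini-Hochberg method over 15136 genes, with calls at an adjusted p under 0.05. Log2 fold changes are Cpd10 over DMSO, the SE is the fold change divided by the root of F, and CPM values use normalised library sizes (log2 CPM with a prior count of 2). The procedure was tested on simulated data with the same dispersion for every gene and no library sets. That test checks the code and does not cover the spread between these libraries.

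DESeq2 1.42.0, limma-voom (limma 3.58.1), other filters and scalings, the replicate letter as a block, the library set as a term and leaving out each library were the alternatives. The library set was known from earlier results of these data. Members, gene lists and the rule for named genes were likewise chosen with earlier results of these data known. The rule names members called in either fit, those with the smallest p, the highest and lowest levels, the steadiest and most variable shares, paralogue pairs and a fixed list, with up to 3 genes of each other list. Rpl34, Rpl15, Rps7 and the copies were named after their values were seen.

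Copies are annotated pseudogenes that matched a member's coding sequence at 95% identity or more over at least 200 bases, or 90% of a shorter coding sequence (blastn 2.17.0). Adding their counts to the members was an alternative chosen after seeing the data. Nothing in the labels ties the letters A to C to separate cultures or mice; p-values therefore cover only the spread among these 6 libraries, possibly a technical one. Deviations of same-letter libraries from their group means correlated at 0.309 for A, 0.432 for B and -0.315 for C. Both A libraries lie in set 1, both B libraries in set 2, and the C libraries in different sets. These correlations therefore cannot show whether the letters pair the libraries.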

Additional observations from a re-analysis of the deposited data

How the results depend on the processing

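Over all genes the edgeR count of 56 calls became 194 with no filter, 381 with DESeq2 and 599 with the library set as a term, of which 53, 56 and 55 were among the 56. Leaving out 1 library gave 0 to 100 calls over all genes. The cause was not tested. Members called higher stayed at 0 except for 1 (Rpl7l1) with DESeq2 and 1 (Rpl7l1) with the set term; members called lower stayed at 0 under every alternative run, leaving out each library (0 to 0) included. The median log2 fold change of the members was 0.23 to 0.27 under the other filters, scalings, tools and the sum with copies, 0.065 to 0.59 without 1 library and -0.0082 with the set term. At an unadjusted p under 0.05 there was 1 member without any library other than DMSO B, and 24 of 79 without DMSO B. Without DMSO B, the DMSO group held set 1 libraries alone, and calls over all genes rose to 100. The share of all genes at that unadjusted threshold was not taken in these fits. The 24 are therefore not read as particular to the members. The difference in member share, Cpd10 minus DMSO, ran from 0.321 to 2.71 percentage points without 1 library, and the difference in small subunit share from -0.240 to 0.146 points; within set 1 the small subunit difference was -0.548 points and within set 2 0.0442 points. Of 37 tested named members, 13 changed sign with the set term and at most 2 under any other alternative, none of them called. With the replicate block, 49 genes were called over all genes, 38 of them shared with the 56. Since it is not known whether the letters pair the libraries, this block is given no reading of its own. With 3 libraries a group and a median member SE of 0.32, a shift of the size of the median fold change was not detectable with group alone.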
